A study of Mus musculus with 24 samples.

Results

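Diesel exhaust at the lower of its doses was compared with filtered air in the lungs of mice that had all received ovalbumin (OVA), the egg-white protein used as an experimental allergen. The comparison rests on 8 of the 24 arrays of the series, chosen by their titles: 4 of lungs from mice exposed to exhaust at 500 ug/m3 and given OVA (DE 500), and 4 of lungs from mice kept in filtered air and given OVA (air). Exposure lasted 4 hours a day for 5 days, and OVA was given as 100 ug on 3 days in both groups, so the air group is an allergen-treated control. The other 16 arrays cover OVA mice at 2000 ug/m3 (DE 2000) and saline mice at 500 ug/m3, at 2000 ug/m3 and in air, with 4 arrays in each of the 6 groups. The labels give neither strain, sex and age nor the route of OVA, and do not state that arrays of a group come from different animals or whether RNA was pooled. P-values therefore measure only the spread between these samples, which may be technical.

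Diesel exhaust carries soot particles coated with polycyclic hydrocarbons. Such hydrocarbons bind the aryl hydrocarbon receptor, which switches on the oxidases Cyp1a1 and Cyp1b1, while oxidants and electrophiles release the factor NRF2, which switches on genes of glutathione synthesis and heme breakdown. Inhaled allergen acts in the lung mainly through the type 2 cytokines IL-4 and IL-13, which drive mucus genes in the airway lining and genes such as Retnla and Chil3 in epithelium and macrophages. Lung tissue mixes all of these cells, so fewer cells of a type and less RNA per cell cannot be told apart in any value given here.

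The 8 arrays were alike in RNA quality. Control probes at both ends of the Gapdh transcript gave a 3'/5' ratio between -0.44 and 0.19 in log2 on them, against 0.08 to 4.91 on the 12 saline arrays. None of 6 measures of quality and hybridization differed between DE 500 and air (exact permutation tests, two-sided, p from 0.543 to 1.0, adjusted p = 1.0; the smallest p that 4 against 4 arrays allow is 0.0286). Defining genes of alveolar type 2 cells (Sftpc, Sftpb, Sftpa1), club cells (Scgb1a1), alveolar type 1 cells (Ager) and endothelium (Cldn5, Pecam1) stood at or above the 95.9th percentile of signal on each of the 8 arrays. Aqp5, a further lung marker, fell as low as the 89.8th percentile, with signals of 1410 to 2639 in DE 500 and 1963 to 2063 in air. Marco, a receptor of alveolar macrophages, stayed between 19.1 and 32.3 in signal, near the dim end of the array. Over the tested probe sets, pairs of arrays from the same group correlated between 0.953 and 0.974 (median 0.967, 12 pairs), and pairs with 1 array from each group between 0.958 and 0.978 (median 0.969, 16 pairs). The largest axis of variation did not run between the groups. The first principal component, 30.1% of the variance, set DE 500 replicates 3 and 4 and air replicate 3 apart from the other 5 arrays, and these 3 also had the highest array medians, between 238 and 243 against 219.7 to 226. Of the 46 oxidative phosphorylation genes tested, 44 were lower on those 3 arrays (median -0.28 in log2), as were 11 of 12 heart muscle genes (median -0.47) and 26 of 30 proteasome genes. In the extracellular matrix list 7 of 36 genes were lower. Over all 13575 tested probe sets 15.3% stood wholly apart on these 3 arrays, 1127 higher and 946 lower. The split was read from these same values, so such counts describe it and support nothing further.

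**Figure D1:**
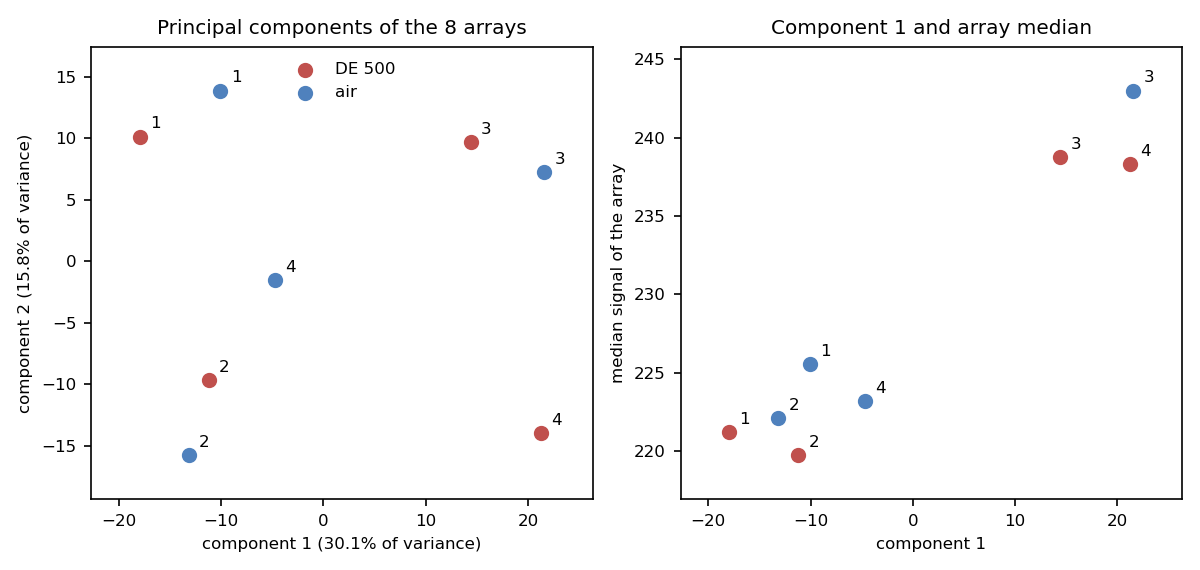
Principal components of the 8 arrays from the tested probe sets (left) and the first component against the median signal of each array (right), with DE 500 in red, air in blue and the replicate number beside each point. DE 500 replicates 3 and 4 and air replicate 3 lie to the right in both panels with medians of at least 238, and neither component separates the exposure groups.

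No probe set passed the test between DE 500 and air in OVA mice. Of 13575 tested probe sets 0 were called (0%), and the smallest Benjamini-Hochberg adjusted p in limma was 1.0. At an unadjusted p under 0.05 there were 247 probe sets (1.82%), 143 above 0 (1.05%) and 104 below 0 (0.766%), fewer than the 679 that an even spread of p-values would place there. The values of the groups did not overlap for 202 probe sets (1.49%), 104 with every DE 500 array above every air array (0.766%) and 98 with every one below (0.722%). Counted as genes, 148 of 8225 had p under 0.05 (1.8%), 79 above 0 (0.96%) and 69 below (0.839%), and 48.6% of genes lay above 0, with a median log2 difference of -0.004. Without DE 500 replicate 1 there was 1 call and 412 probe sets under 0.05, and without air replicate 3 there were 0 calls and 419.

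The absence of calls was paired with narrow limits for most tested genes. The 95% confidence interval of the log2 difference lay wholly within 2-fold in either direction for 13316 probe sets (98.1%) and within 1.5-fold for 11007 (81.1%). In a fit without the signal filter, over 22626 probe sets, these shares were 70.1% and 48.5%. Among genes, each spoken for by its most strongly expressed tested probe set, the interval lay within 2-fold for 8102 of 8225 (98.5%) and within 1.5-fold for 6937 (84.3%). The median half-width of the interval was 0.32 in log2, a factor of 1.25. Precision followed signal: with probe sets ranked by mean signal in 4 equal bins, 53.1% of the dimmest bin lay within 1.5-fold, then 82.4% and 92.0%, and 96.9% of the brightest. A total of 259 probe sets had intervals that reached 2-fold, 174 of them in the dimmest bin. These intervals hold for each probe set alone. Held for all 13575 at once with a Bonferroni level, 23.6% lay within 2-fold and 91.1% within 4-fold. A lone probe set with the median standard error (SE) of 0.148 would have needed a log2 difference of 1.17, or 2.25-fold, to be called. The observed differences ran from -0.93 to 1.23, and 73 exceeded 1.5-fold, 40 above and 33 below. Only 6 exceeded 2-fold, all above 0 and 5 of them in the dimmest bin.

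**Figure D2:**
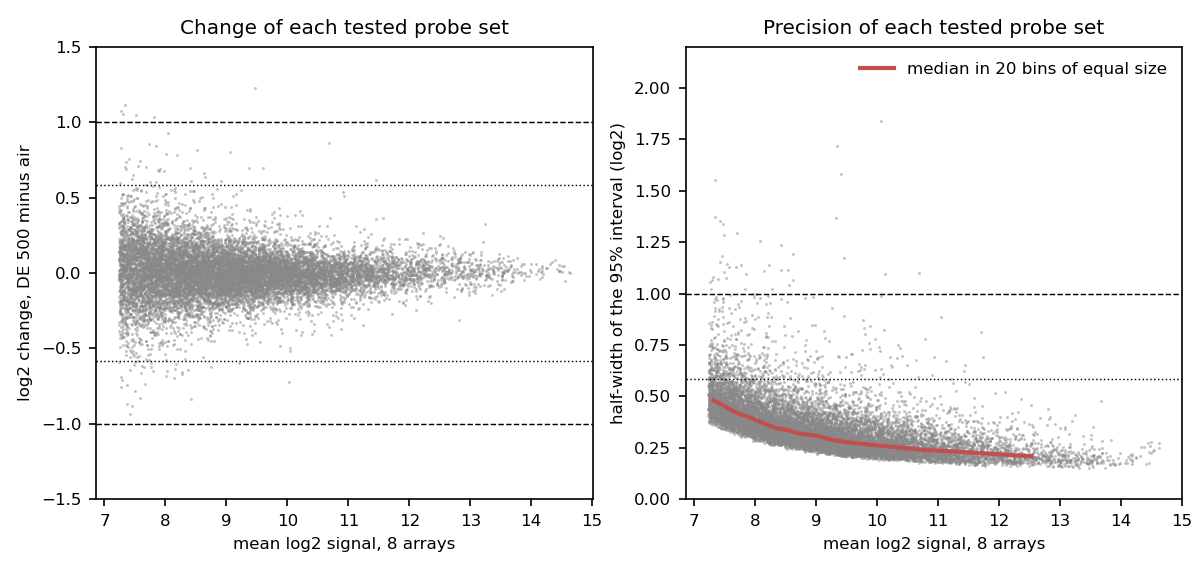
Log2 difference DE 500 minus air (left) and half-width of its 95% interval (right) for each of 13575 tested probe sets against the mean log2 signal of the 8 arrays. Dotted lines mark 1.5-fold, dashed lines mark 2-fold, and the red line joins medians of equally filled bins of signal; the cloud is centred on 0 at all signals and both spreads narrow as signal grows.

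The genes with the smallest p above 0 had a mix of functions, and none passed the test (limma, adjusted p = 1.0 for each). They were picked for their p in this same comparison, so their values describe it and support nothing further. Foxh1, a transcription factor that partners SMAD proteins in nodal and activin signalling, had signals of 274, 291, 421 and 317 in DE 500 against 224, 199, 101 and 133 in air. All 4 DE 500 arrays stood above all 4 air arrays, a log2 difference of 1.04 ± 0.25 (SE; 2.05-fold, 95% interval 1.41 to 2.98). Foxh1 was the furthest from 0 among genes whose groups did not overlap, and its mean of 164 in air lies close to the signal of 150.9 below which probe sets were not tested. Abcg8, a subunit of a sterol export pump, had 215, 189, 242 and 251 in DE 500 and 150.4, 163, 148 and 112 in air. Again the groups did not overlap (0.65 ± 0.18), and the mean of Abcg8 in air, 143, lies below that limit of 150.9. Rad17, a loader of the DNA damage checkpoint clamp, had 387, 442, 464 and 525 in DE 500 against 278, 351, 335 and 319.8 in air, also without overlap (0.50 ± 0.14).

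Further genes of this group, with differences between 0.35 and 0.68, had other roles. Adcyap1r1, the receptor of the neuropeptide PACAP, gave 0.57 ± 0.18, and Tspan12, a membrane tetraspanin of Norrin signalling, gave 0.55 ± 0.17. Oasl1, an interferon-induced regulator of translation, gave 0.53 ± 0.17, and Adck1, a mitochondrial kinase-like protein, gave 0.53 ± 0.16. Rflnb, which binds filamin, gave 0.48 ± 0.15. The histone H3 lysine methyltransferase Setdb1 (0.36 ± 0.12) and the ubiquitin ligase Lnx2 (0.35 ± 0.11) were the brightest of them. Lnx2 had 838, 815, 1009.6 and 940.5 in DE 500 against 672, 746, 768 and 642 in air, so that its lowest DE 500 array stood above its highest air array. Zbtb45, a zinc finger protein (0.68 ± 0.24), and Acox3, a peroxisomal oxidase of branched fatty acids (0.55 ± 0.19), completed the largest differences without overlap.

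**Figure D3:**
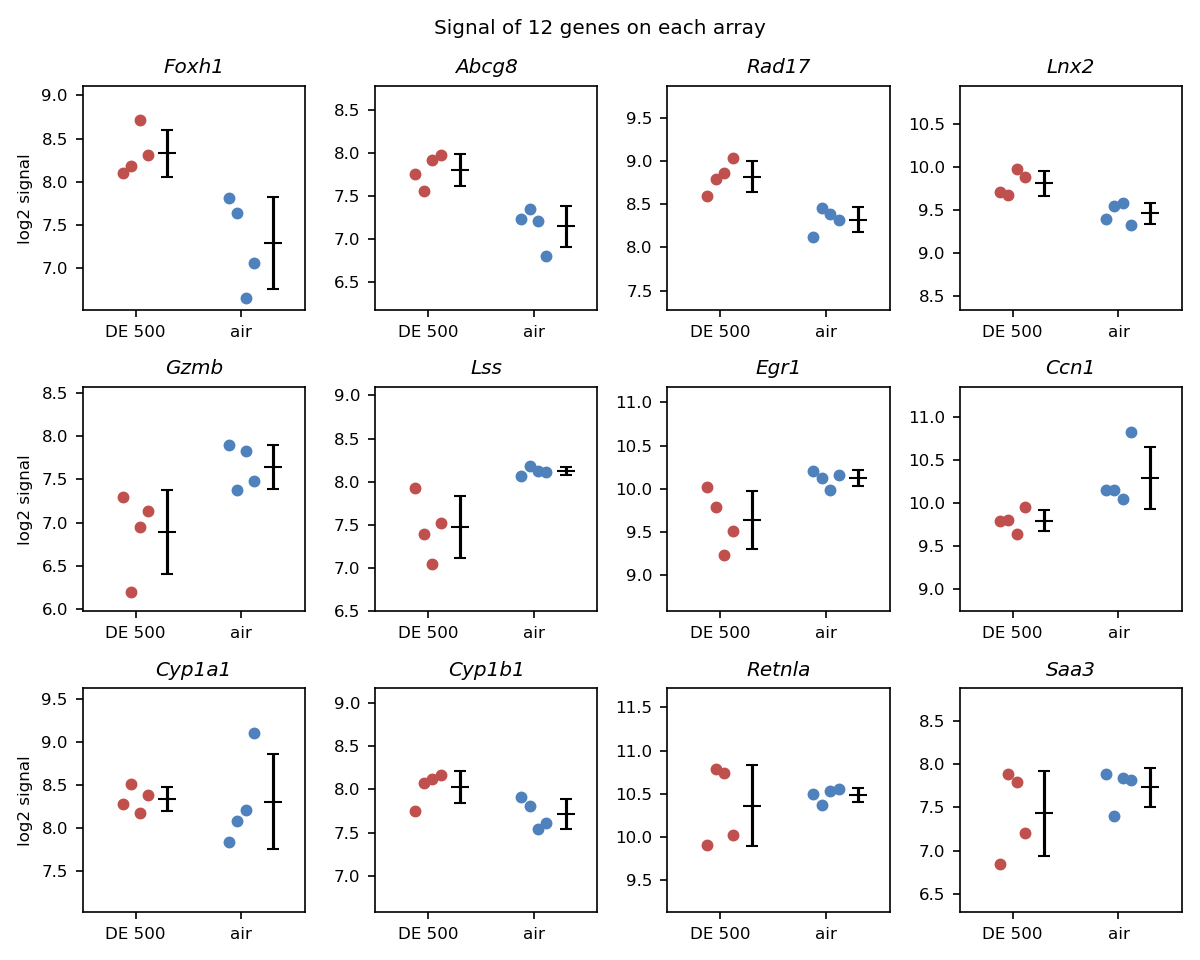
Log2 signal of 12 genes on each array, DE 500 (red) left and air (blue) right, 4 arrays each in replicate order, with the group mean and SD as a black bar; every panel spans 2.6 log2 units. Foxh1, Abcg8, Rad17 and Lnx2 do not overlap with DE 500 on top, Gzmb, Lss and Ccn1 do not overlap with air on top, and the remaining genes overlap.

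Below 0 stood a sterol enzyme, a cytotoxic granule enzyme and 2 immediate early genes (limma, adjusted p = 1.0 for each). Lss, the lanosterol synthase of cholesterol synthesis, had signals of 243, 169, 132 and 183 in DE 500 and 268, 291, 279 and 276 in air. The air arrays were tight and lay above every DE 500 array (-0.65 ± 0.19). Gzmb, the granzyme B protease of cytotoxic T and natural killer cells, had 157, 73.4, 123 and 140.1 in DE 500 against 238, 167, 228 and 179 in air, without overlap (-0.76 ± 0.25, 95% interval -1.30 to -0.21). Gzmb was furthest below 0 among genes whose groups did not overlap.

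Egr1, an immediate early transcription factor, had 1036, 886, 601 and 729 in DE 500 and 1179, 1116, 1017 and 1144 in air. The groups overlapped through 1 array, DE 500 replicate 1 (-0.48 ± 0.15). Ccn1, a secreted matrix protein induced by serum and stretch, had 886, 892, 799 and 989.7 in DE 500 against 1133, 1134, 1057 and 1814 in air. Its groups did not overlap (-0.49 ± 0.16), and air replicate 4 alone stood far above the rest. Without that array the Ccn1 difference was -0.32. Its other tested probe set gave -0.60 ± 0.28.

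The remaining genes below 0 had differences of similar size. The GTPase Gnl2, which acts in the nucleolus, gave -0.65 ± 0.22. Tshb, the hormone subunit of thyrotropin, gave -0.56 ± 0.18, and Khdrbs3, an RNA-binding splicing regulator, gave -0.52 ± 0.19. The mean of Khdrbs3 in DE 500, 148, lay below the limit for testing. Ccdc93, a part of an endosomal sorting complex, gave -0.47 ± 0.15, and Saal1 gave -0.40 ± 0.13. Elac2, a ribonuclease that trims tRNA ends, gave -0.47 ± 0.15, but both of its other tested probe sets lay above 0 (0.09 and 0.01). Galnt7, which starts O-linked sugar chains, gave -0.41 ± 0.13 and its other probe set 0.45 ± 0.20, of opposite sign. Pdlim5, a cytoskeletal scaffold, had the tightest DE 500 values of these genes, 746, 727, 731 and 703 against 855, 864, 906 and 999 in air (-0.32 ± 0.10); 2 of its 3 other probe sets lay above 0.

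Probe sets of the same gene often disagreed. Of the 247 probe sets with p under 0.05, 228 name 1 gene, and 127 of those have a gene with another tested probe set. Among the 237 other probe sets of these genes, 141 (59.5%) lay on the same side of 0 and 2 also had p under 0.05 on that side. The smallest p of all, 0.00035, belonged to a probe set of Cdk2ap1, an inhibitor of the cell cycle kinase CDK2, which is named here after its values were seen. That probe set, of a type (suffix x_at) whose probes may also match other transcripts, had signals of 1442, 2635, 2768 and 2247 in DE 500 against 1202, 1333, 1061 and 1269 in air, a log2 difference of 0.86 ± 0.18. The other 2 probe sets of Cdk2ap1 gave 0.18 ± 0.12 and 0.03 ± 0.11. The former is the brightest and speaks for the gene. Its groups overlapped, and it is of the same x_at type. Without DE 500 replicate 1 the probe set of smallest p was the single call (1.07, limma adjusted p = 0.0167). A probe set of the ubiquitin ligase Siah1a gave 0.64 ± 0.14 while its other 2 gave 0.23 and -0.02. For the TGF-beta receptor Tgfbr2 the values were 0.56 ± 0.13 and, on the brighter probe set, -0.02 ± 0.08.

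Targets of the aryl hydrocarbon receptor had intervals that include 0 for each gene described. Cyp1a1, the oxidase of polycyclic hydrocarbons, had signals of 311, 365, 289.8 and 334 in DE 500 and 229, 271, 295 and 549 in air. The groups overlapped, with the widest spread in air (0.03 ± 0.23, 95% interval -0.47 to 0.53), and the interval as a ratio runs from 0.723 to 1.44. Cyp1b1, a related oxidase, had 216, 269, 279 and 289 in DE 500 against 242, 225, 186 and 196 in air. Only DE 500 replicate 1 fell among the air arrays (0.31 ± 0.16, interval -0.04 to 0.66). Tiparp, a poly(ADP-ribose) polymerase that feeds back on the receptor, gave 0.15 ± 0.11 and its 2 other probe sets 0.22 and 0.27. Of the 12 listed target and pathway genes 7 were tested, 6 lay above 0 with a median of 0.03, and 0 had p under 0.05.

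Oxidant-response genes were centred on 0. Of 31 listed NRF2 targets 25 were tested, with 12 above 0 and a median of -0.03 beside the median of -0.004 over all tested genes, and 24 of the 25 intervals lay within 1.5-fold. Hmox1, which breaks down heme, was the exception, with 291, 241, 290.3 and 206 in DE 500 against 285, 122, 246 and 323 in air (0.15 ± 0.27, interval -0.43 to 0.73). Gclc, the catalytic subunit of glutathione synthesis, gave 0.09 ± 0.16, and its other probe set -0.17 ± 0.15. Abcc1, a pump for glutathione conjugates, had the smallest p of the list without reaching 0.05 (-0.29 ± 0.14), and its other probe set gave -0.02. Nqo1, a quinone reductase, lay below the limit for testing with signals of 132, 127, 132 and 144 in DE 500 and 155, 161, 133 and 148 in air. The metal-binding proteins Mt1 (0.04 ± 0.19) and Mt2 (-0.03 ± 0.21) overlapped between the groups.

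Genes of the allergic response were likewise centred on 0. Retnla, a secreted protein of type 2 inflammation, had 960.0, 1772, 1706 and 1036 in DE 500 and 1444, 1320.3, 1483 and 1499.9 in air. The DE 500 arrays lay on both sides of the tight air arrays (-0.12 ± 0.18, interval -0.53 to 0.28). Chil3, a chitinase-like protein of activated macrophages, gave -0.03 ± 0.13 and the airway mucin Muc5b 0.05 ± 0.20. Of 30 listed genes of the type 2 airway response 10 were tested, 6 of them above 0 with a median of 0.01, and all 10 intervals lay within 2-fold. Defining genes of goblet cells and of the type 2 response were too dim to test. Muc5ac stayed between 24.6 and 40.2 in DE 500 against 14.4 and 49.5 in air, and Il13 between 10.9 and 17.8 against 11.5 and 14.4. Il4 had 106, 87.3, 92.6 and 82.8 in DE 500 against 57.5, 92.2, 54.5 and 44.7 in air, a difference of 0.61 in a fit without the filter, with an interval from -0.04 to 1.27. In that fit the chemokine Ccl11 gave -1.09 (interval -2.41 to 0.23) and the goblet cell gene Clca1 -0.73 (interval -2.85 to 1.38). Muc5ac gave 0.12 and Il13 -0.001 there. Eosinophil granule genes were near the floor in both groups, with Prg2 between 23.9 and 36.3 in DE 500 and between 28.9 and 69.3 in air.

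Genes that stood out at 2000 ug/m3 had intervals that include 0 at 500 ug/m3. They were chosen from earlier results at the higher dose, and both doses are set against the same 4 air arrays. Higher values in DE 2000 than in air or in DE 500 were favoured by that choice. Pigr, which moves IgA through epithelial cells, is measured by 2 probe sets, of which the brighter on these 8 arrays had 543, 606, 663 and 597 in DE 500 and 624, 615, 578 and 544 in air. The values interleaved, and the interval of -0.21 to 0.27 is among the narrowest of the genes named (0.03 ± 0.11). On the same probe set the DE 2000 arrays had 1260.5, 1641, 1253 and 637, a difference from air of 0.94 with an interval of 0.47 to 1.42 (limma, adjusted p = 0.477). The other Pigr probe set gave 0.05 in DE 500, with an interval from -0.34 to 0.44, and 1.56 in DE 2000 (limma, adjusted p = 0.130).

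The 2 doses were tested against each other in a fit of the 12 OVA arrays. Between DE 2000 and DE 500, 0 of 13575 probe sets were called (0%), while 1562 had an unadjusted p under 0.05 (11.5%); for DE 2000 against air the shares were 0% and 9.23%. With single arrays left out the count of 1562 ranged from 873, without DE 500 replicate 4, to 2263, without DE 2000 replicate 1. It was 995 without DE 500 replicate 3. The smallest adjusted p was that of Pigr, 1.51 on the second probe set (interval 1.02 to 2.00, limma adjusted p = 0.189) and 0.92 on the first (interval 0.44 to 1.39, adjusted p = 0.362). Without DE 2000 replicate 4, whose Gapdh ratio was 2.09, the only 2 calls were these Pigr probe sets. The first gave 1.19 (limma adjusted p = 0.00257) and the second 1.28 (limma adjusted p = 0.0328). Cd177, a surface protein of neutrophils, was too dim to test in the 8 arrays, at 108, 159, 88.5 and 144 in DE 500 against 146, 88.4, 89.1 and 127 in air. In DE 2000 it had 465, 217, 391 and 716, a difference from DE 500 of 1.75 (interval 1.05 to 2.46, limma adjusted p = 0.362). Pigr and Cd177 were chosen from the higher dose, which favoured intervals above 0, so these values support nothing further.

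Other genes chosen from the higher dose were measured in the same way, and higher values in DE 2000 were again favoured by that choice. Retnla was 0.88 higher in DE 2000 than in DE 500 (interval 0.49 to 1.27), Lcn2, an iron-withholding lipocalin, 0.75 (0.33 to 1.16), and the interferon-induced membrane protein Ifitm1 0.69 (0.34 to 1.04), all with adjusted p of 0.362 in limma. In DE 500 against air Lcn2 gave -0.06 ± 0.15 and Ifitm1 0.08 ± 0.14. Reg3g, a bactericidal lectin, gave 0.43 ± 0.32 in DE 500 with an interval from -0.27 to 1.13, the least well bounded of these genes. In DE 2000 against air Reg3g gave 1.59 (interval 0.85 to 2.33, limma adjusted p = 0.477). Saa3, an acute phase protein made locally in inflamed lung, gave -0.30 ± 0.24 in DE 500, and 0.52 in DE 2000 against air with an interval from -0.67 to 1.71. Cp, the copper-carrying ferroxidase, gave -0.31 ± 0.21 in DE 500, where 2 of its 6 other probe sets lay above 0, and 0.58 in DE 2000 with an interval from -0.11 to 1.26. The intervals of both genes include 0 at either dose. Polr2j, a subunit of RNA polymerase II, gave 0.23 ± 0.13 in DE 500 and 0.67 in DE 2000 against air (interval 0.39 to 0.95, limma adjusted p = 0.477). The actin-capping Tmod3 and the mRNA export factor Fyttd1, chosen from earlier results in saline mice, gave 0.03 ± 0.11 and 0.14 ± 0.17 in DE 500, and -0.34 and -0.05 in DE 2000 against air, with intervals that include 0.

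**Figure D4:**
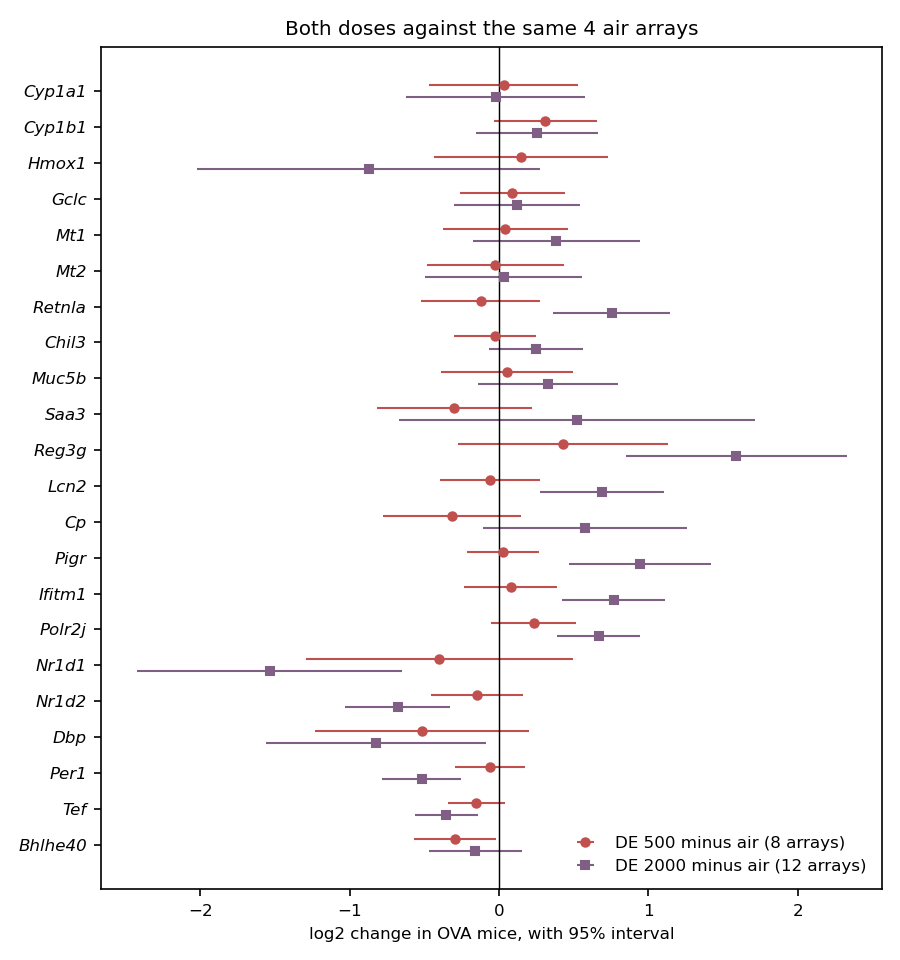
Log2 differences from air in OVA mice with 95% intervals for 22 genes, at 500 ug/m3 (red circles, fit of 8 arrays) and at 2000 ug/m3 (purple squares, fit of 12 arrays); both doses use the same air arrays. At 500 ug/m3 every interval shown except that of Bhlhe40 includes 0, and the Pigr interval of -0.21 to 0.27 lies below the interval of 0.47 to 1.42 at 2000 ug/m3.

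Genes of the circadian clock lay mostly below 0, with wide spreads between arrays. Of 16 tested clock and output genes 5 were above 0 and 11 below (median -0.09, beside -0.004 over all tested genes), and 1 had p under 0.05. The median was -0.03 without DE 500 replicate 1. Dbp, a clock output factor, had 1852, 772, 896 and 477 in DE 500 against 1807, 902, 1388 and 1129.9 in air. Its groups overlapped (-0.52 ± 0.33), and its other probe set gave -0.73 ± 0.34. The clock repressor Nr1d1 ranged from 287 to 1592 within air alone, and its difference of -0.40 ± 0.41 had an interval from -1.29 to 0.49. Bhlhe40, another repressor of the clock, was the member with p under 0.05 (-0.30 ± 0.13; limma, adjusted p = 1.0). Per3 gave -0.29 ± 0.15, and its other probe set -0.04 ± 0.21. Nr1d2 gave -0.15 ± 0.14, and its other, dimmer probe set -0.60 ± 0.24 (interval -1.13 to -0.07). Without the 3 arrays of higher median Nr1d1 and Nr1d2 gave 0.07 each, of opposite sign. In DE 2000 the difference from air was -1.54 for Nr1d1 and -0.52 for Per1, whose value in DE 500 was -0.06 ± 0.11. Between DE 2000 and DE 500 Per1 differed by -0.46 (limma, adjusted p = 0.362).

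Among 20 tested immediate early genes 3 had p under 0.05, beside 1.8% of all genes, and all 3 were below 0. Beside Egr1 and Ccn1 this was Fos, a subunit of the AP-1 factor, with 1009, 1144, 919 and 1108 in DE 500 and 1436, 1224, 1064 and 1966 in air. Air replicate 4 was the highest array for Fos as for Ccn1 (-0.41 ± 0.17), and without it the Fos difference was -0.24. The list as a whole, these 3 genes included, had 8 members above 0 and 12 below with a median of -0.03, and without air replicate 4 the median was 0.06.

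Heat shock genes lay above 0 more often than not. Of 23 tested chaperones 17 were above 0 (73.9%, beside 48.6% of all tested genes) with a median of 0.11, and 1 had p under 0.05. That gene was the small heat shock protein Hspb8, with 485, 529, 571 and 417 in DE 500 against 312, 341, 492 and 379 in air (0.40 ± 0.16; limma, adjusted p = 1.0). Its other probe sets gave 0.24 ± 0.18 and, with the opposite sign, -0.19 ± 0.20. Hspb1, its abundant relative, gave 0.32 ± 0.19, the co-chaperone Dnajb1 0.30 ± 0.14 and the chaperone Hsp90aa1 0.19 ± 0.10. Hspb1 ran from 8925 to 13414 in DE 500 and fell into a low and a high pair in air, at 6620.2 and 6750.5 and at 10944 and 11655. St13, a cofactor of Hsp70, did not overlap between the groups (0.22 ± 0.13). The chaperone median ranged from 0.05 to 0.14 when single arrays were left out. The list of glucocorticoid-responsive genes, with 19 of 28 above 0 and a median of 0.06 that was -0.004 without air replicate 1, held the cell cycle inhibitor Cdkn1a, at 1437, 2612, 2202 and 3503 in DE 500 and 929, 2206, 1803 and 1776 in air (0.54 ± 0.28), and the lipase inhibitor Angptl4 (0.31 ± 0.19). Both were lowest in replicate 1 of either group.

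Lymphocyte genes had the lowest median of the 40 lists with at least 5 tested genes, and it moved with single arrays. Of 18 tested B and T cell genes 4 lay above 0 and 14 below (median -0.14), beside 48.6% of all genes above 0. With p under 0.05 there were 2, beside 1.8% of all genes: Gzmb and Klrd1, a receptor of natural killer cells (-0.37 ± 0.17). Klrd1 had 179, 168, 149 and 142 in DE 500 against 195, 207, 238 and 185 in air, without overlap. Cr2, the complement receptor of B cells, gave -0.40 ± 0.20. The means of Gzmb and Cr2 in DE 500, 123 and 147, lay below the limit for testing. Cd3d, a chain of the T cell receptor complex, ran from 122 to 433 in DE 500 and from 218 to 441 in air (-0.44 ± 0.34), and was 0.21 without the 3 arrays of higher median. The summed signal of the 24 lymphocyte genes on the array was 4980.0 to 7320.2 in DE 500 and 5581 to 7772 in air, and the median of the list ranged from -0.21 to -0.05 when single arrays were left out. Their part in the values of Gzmb and Klrd1 was not tested.

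Neutrophil genes did not stand higher in DE 500. Of 11 tested, 3 lay above 0 and 8 below with a median of -0.11, which was -0.16 without DE 500 replicate 1, and 0 had p under 0.05. The calprotectin subunits S100a8 (-0.31 ± 0.27) and S100a9 (-0.39 ± 0.30) varied together, each with its highest signal in replicate 1 and its lowest in replicate 4 of both groups. The summed signal of 17 neutrophil genes was 5207 to 7817 in DE 500 and 6759.8 to 8351 in air. Of 28 interferon-stimulated genes 8 lay above 0 and 20 below, beside 48.6% of all genes above 0. Their median of -0.07 was 0.002 without DE 500 replicate 4 and -0.12 without DE 500 replicate 1, and the 2 with p under 0.05 had opposite signs, Oasl1 above and the GTPase Irgm1 below (-0.39 ± 0.15). In complement the terminal component C6 was the member with p under 0.05 (0.45 ± 0.16) while 10 of 16 genes lay below 0, with a median of -0.04 that was 0.005 without air replicate 3. Chemokines and inflammatory cytokines were centred on 0, with medians of -0.02 for 9 CXC chemokine genes, -0.01 for 6 CC chemokine genes and 0.01 for 18 cytokine and NF-kB genes. Socs3, a feedback inhibitor of cytokine signalling, had the smallest p of the cytokine list without reaching 0.05 (-0.37 ± 0.17), and 1 of its 2 other probe sets lay above 0.

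Of 31 tested fatty acid and sterol genes 4 had p under 0.05, beside 1.8% of all genes, and they pointed both ways. Abcg8 and Abcg4, both sterol transporters, lay above 0 (0.65 ± 0.18 and 0.46 ± 0.16), and the synthesis enzymes Lss and Idi1 lay below (-0.65 ± 0.19 and -0.29 ± 0.13). Idi1, an isomerase of the mevalonate pathway, had 674, 672, 627 and 592 in DE 500 against 988, 731, 683 and 757 in air, without overlap, and its other probe set gave -0.01. The whole list had 15 above 0 and a median of -0.003. At 2000 ug/m3 Abcg8 and Abcg4 differed from air by 0.08 and -0.01, and from DE 500 by -0.57 and -0.47 (limma, adjusted p = 0.362 and 0.368). Abcg8 was named for its small p in DE 500 against air, and Abcg4 from an earlier fit that held these DE 500 arrays. Lower values in DE 2000 than in DE 500 were favoured by that choice. The mean of Abcg8 in air, 143, also lay below the limit for testing.

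Over all 46 lists, 687 distinct genes were tested, 0 were called and 15 had p under 0.05, 6 above 0 and 9 below, beside 1.8% of all genes. Medians of the 40 lists with at least 5 tested genes ran from -0.14 for lymphocytes to 0.25 for fat tissue. The lists of lung cells were level, with medians between -0.02 and 0.08: club cells 0.001 over 17 genes, alveolar type 2 cells -0.01 over 21, alveolar type 1 cells -0.01 over 14, endothelium 0.02 over 27, and smooth muscle and pericytes 0.08 over 16. Every interval of the 17 club cell genes and of the 21 alveolar type 2 genes lay within 1.5-fold. Oxidative phosphorylation (median -0.03 over 46 genes), glycolysis (0.01 over 16) and the proteasome (-0.02 over 30) were likewise level, and 45, 16 and 30 of their genes had intervals within 1.5-fold. In the mesothelial and fibroblast list the mesenchymal factor Foxf1 had p under 0.05 (0.31 ± 0.14).

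The fat tissue list owed its median to 1 array. Adipoq, the adipocyte hormone adiponectin, had 291, 299, 282 and 1327 in DE 500 against 283, 358, 344 and 399 in air. Car3, a carbonic anhydrase abundant in fat, had 2431, 2403, 2352 and 7443 in DE 500 and 2266, 2714, 2694 and 2267 in air. The high value was in DE 500 replicate 4 for both genes, as for the hormone Retn (1066 there). The other DE 500 arrays lay at air levels. All 6 tested fat genes were above 0, with Pnpla2, a lipase, at 0.13 ± 0.11 and Retn at 0.39 ± 0.23, and without DE 500 replicate 4 the median of the list was -0.08. The summed signal of 10 fat genes was 6332 to 16606 in DE 500 and 6110.0 to 7283 in air. Heart muscle genes, present on all arrays, had a median of 0.11 over 12 genes that ranged from -0.06 to 0.21 when single arrays were left out.

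**Figure D5:**
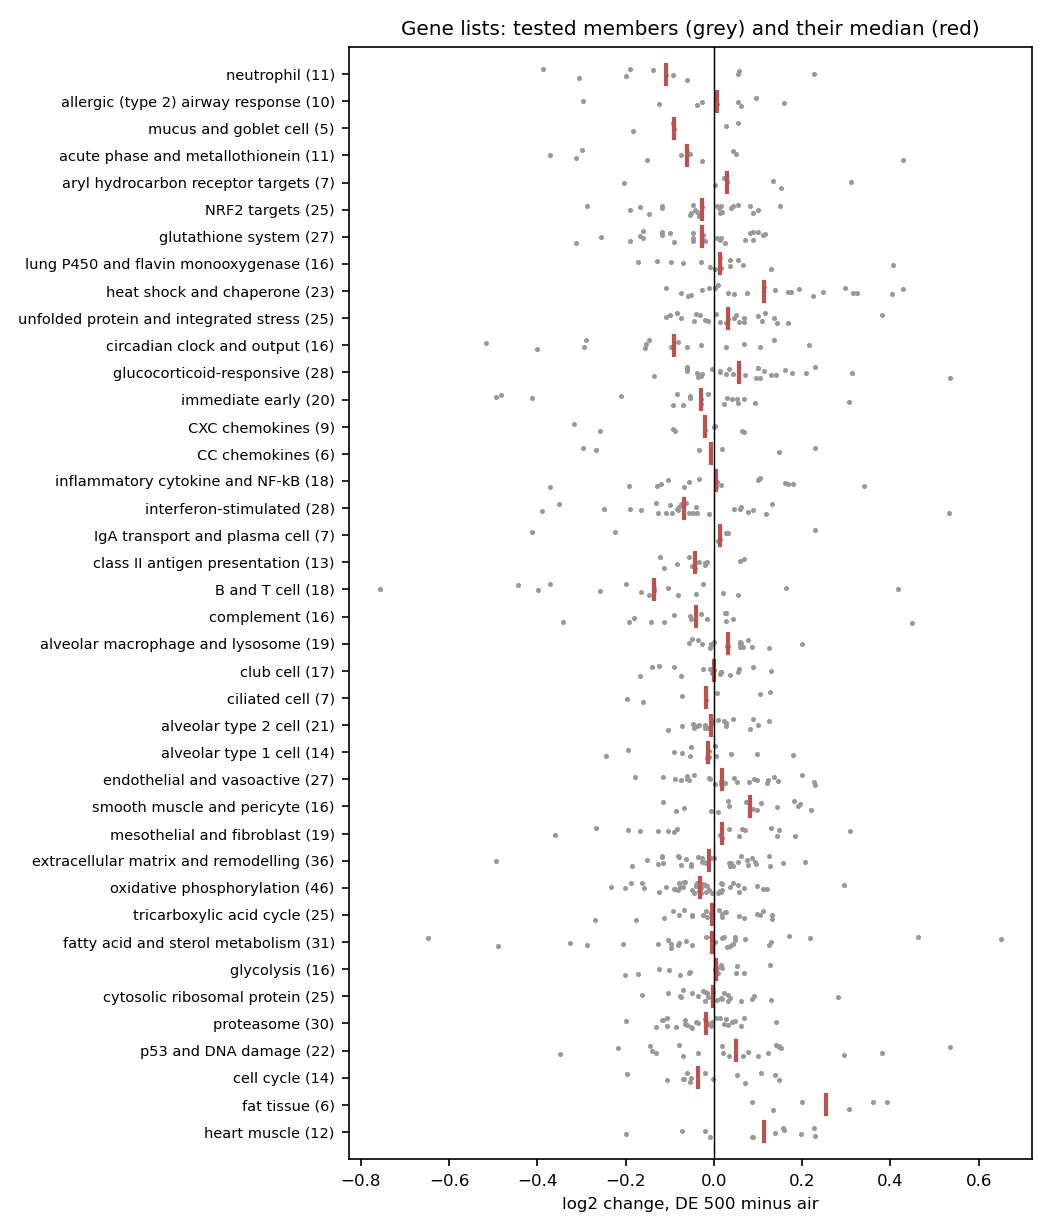
Log2 difference DE 500 minus air of every tested member (grey points) of the 40 lists with at least 5 tested genes, the number of members in brackets and the median as a red bar. Medians lie between -0.14 and 0.25, and the fat tissue median rests on DE 500 replicate 4.

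The response to 500 ug/m3 was also compared between OVA and saline mice, in a fit of 16 arrays that holds saline arrays of uneven RNA quality. The difference between the arms was called for 0 of 13575 probe sets (0%), and 489 had an unadjusted p under 0.05 (3.6%), or 749 without the saline DE 500 replicate 3. Egr1 differed between the arms by -0.76 (interval -1.26 to -0.26) and Ccn1 by -0.64 (interval -1.11 to -0.18), in limma with adjusted p of 1.0 for both. In saline mice their differences from air at 500 ug/m3 were 0.28 and 0.15. Fyttd1 differed by -1.57 between the arms (interval -2.55 to -0.58, limma adjusted p = 1.0), from 0.14 in OVA mice in the 8-array fit and 1.71 in saline mice. In saline air its signals of 228, 398, 216 and 884 held 1 array far above the others, and without that array, air replicate 4, there were 6 calls. Egr1 and Ccn1 were named for a small p between the OVA arrays used here, and Fyttd1 from earlier results in saline mice. Intervals that exclude 0 were favoured by that choice, so these values support nothing further.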

How the data were processed

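Lung RNA was measured on 1-colour Affymetrix arrays in 6 groups of 4. Each deposited value is a linear intensity for a probe set on an array. Per the submitters' processing notes the authors made it with MAS5 (version not given in the sources used). Trimmed array means lay between 500.0 and 500.2, so arrays were already scaled. Of 22690 probe sets 64 controls were set aside. By GEO's platform annotation 20380 name 1 gene, 691 several and 1555 none. Signals were taken to log2 with no pseudocount. Probe sets above the 40th percentile of the mean over the 8 arrays, a signal of 150.9, were tested. These numbered 13575 and stand for 8225 genes, each spoken for by its tested probe set of highest mean.

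The 8 arrays were fitted alone in limma 3.58.1 under R 4.3.3 (lmFit, eBayes with a trend, two-sided, Benjamini-Hochberg over all tested probe sets, called at adjusted p below 0.05). Intervals of 95% come from the same fit; their precision is limited by the number of arrays. Tests of dose used the 12 OVA arrays and the test between arms used 16. The fit was checked on simulated data. Figures used Python 3.11.15, pandas 2.3.3 and matplotlib 3.10.9.

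The comparison, its members and the 46 lists were chosen with earlier results of these data known. Genes were named by rule: the 10 smallest p on each side of 0, the 5 largest differences without overlap on each side, up to 4 members of smallest p per list described, and fixed genes of exhaust, allergy, the higher dose, the clock and an earlier fit of all arrays. Cdk2ap1, Siah1a and Tgfbr2 were added after their values were seen. Alternatives covered scaling, filter, pseudocount, samples in the fit, array weights, variance prior, a single probe set for each gene, replicate number as block, covariates and each array left out.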

Additional observations from a re-analysis of the deposited data

Results flagged for a closer look

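In 11 of 158 groups of 4 arrays checked for the named genes (6.96%), the array furthest from the others had a gap that filled most of the group's range; chance alone gives about 1 in 20. The values below are log2 signals. In DE 500 replicate 4, Adipoq was 10.37 and Car3 12.86, both far above the other 3 arrays, while Setdb1 was 9.02 and below them. In DE 500 replicate 1, Adck1 was 8.05, below the others, and St13 was 9.73, above them. In air replicate 4, Ccn1 at 10.82 and Oasl1 at 7.98 stood above the other 3 arrays and Gclc at 9.77 below. In air replicate 2, Saa3 at 7.40 and Foxf1 at 9.64 stood below the others, and in air replicate 3 Zbtb45 at 6.76 did. Differences of these genes moved when those arrays were left out, some towards 0 and some away from it. Without air replicate 4 that of Ccn1 was -0.32 in place of -0.49, and without air replicate 3 that of Zbtb45 was 0.41 in place of 0.68. Further from 0 stood Oasl1 without air replicate 4, at 0.66 in place of 0.53. Setdb1 without DE 500 replicate 4 was 0.44 in place of 0.36.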

How the results depend on the processing

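The count of calls between DE 500 and air was 0 under all 16 alternatives other than leaving out single arrays, with 109 to 609 probe sets under an unadjusted p of 0.05 in limma. It was 0 to 1 when single arrays were left out, the 1 arising without DE 500 replicate 1. With the replicate number as a block there were 0 calls, 404 probe sets under 0.05, and 98.9% of intervals within 2-fold. Same-numbered arrays had residual correlations of 0.19, 0.26, 0.31 and -0.02, so the numbers were not taken as pairs; for 3 of 4 numbers each array correlated best with its own number, a hint from the data only. Sharing the spread of all 12 OVA arrays gave 109 probe sets under 0.05, and all 24 arrays gave 110; a filter at the 60th percentile of signal gave 132, a covariate for the array median 393, leaving out the 3 arrays of higher median 384 and no filter 609, against 247 as reported. For the difference between the arms the count of 489 became 1169 with a covariate for RNA quality. The share of intervals within 2-fold ranged from 70.1% to 99.3% and within 1.5-fold from 48.5% to 91.9%, the lowest of both without a filter, where dimmer probe sets enter. Between DE 2000 and DE 500 there were 0 to 2 calls with single arrays left out and 0 otherwise, and between the arms 0 to 6 and 0 otherwise; the replicate block left both at 0.

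Of 74 named genes 55 kept their sign throughout. Differences took the other sign in these cases, the cause not tested. Tmod3 was -0.0052 with array weights. With a covariate for RNA quality (3'/5' ratio) Cyp1a1 was -0.040, Chil3 0.054 and Muc5b -0.020. Without the 3 arrays of higher median, a fit chosen after seeing the data, Mt2 was 0.019, Muc5b -0.059, Pigr -0.048, Lcn2 0.065, Nr1d1 0.070, Nr1d2 0.073, Cd3d 0.21, Adipoq -0.22, S100a8 0.028 and S100a9 0.10. With single arrays left out the range was -0.12 to 0.29 for Cyp1a1, -0.15 to 0.31 for Hmox1, -0.046 to 0.21 for Gclc, -0.079 to 0.17 for Mt1, -0.18 to 0.14 for Mt2, -0.27 to 0.028 for Retnla, -0.11 to 0.064 for Chil3, -0.16 to 0.19 for Muc5b, -0.020 to 0.076 for Pigr, -0.21 to 0.035 for Lcn2, -0.032 to 0.11 for Tmod3, -0.016 to 0.24 for Fyttd1, -0.24 to 0.50 for Adipoq and -0.048 to 0.51 for Car3. Signal over background limits the dimmest genes, such as Il4 and Muc5ac, whose intervals in the fit without a filter reach beyond 2-fold.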

Other observations

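Fbxl6, an F-box protein of ubiquitin ligases, lay just below the limit for testing and was the one named gene there whose groups did not overlap, with signals of 160.0, 187, 197 and 161 in DE 500 against 116, 107, 87.7 and 121 in air. Fitted without the filter it gave 0.71 with an interval from 0.26 to 1.16 (limma, adjusted p = 1.0). Epas1, a hypoxia-inducible factor of endothelium, followed the split of arrays by median signal, at 3097 and 4485 in DE 500 replicates 3 and 4 and 3793 in air replicate 3, against 1144 to 2344 on the other 5 arrays. The isocitrate dehydrogenase Idh1 ran the other way, at 900.2, 1056 and 691 on those 3 arrays and 1496 to 2000.1 on the others. Epas1 and Idh1 are named here after their values were seen.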
